A study of Rattus norvegicus with 12 samples.

Results

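The 10 genes described here mark macrophages and other cells of the blood lineage: Csf1r, Cd68, C1qa, C1qb, C1qc, Aif1, Cx3cr1, Ptprc, Cd74 and Mrc1. They were chosen by name, as the probes of the array whose gene name is one of these symbols. All 10 were found, on 13 probes, among 19381 genes with a usable probe. The arrays carry pituitary RNA of fetal Wistar rats at gestational day 18, with 3 arrays from control males, 3 from control females, 3 from TCDD-exposed males and 3 from TCDD-exposed females. The compound is a dioxin that binds and activates the aryl hydrocarbon receptor, and the series title states that exposure was maternal. An array is named below by its group and replicate number. Dose, dosing day, the pooling of glands and the sharing of litters are not given in the sources used here, so the p-values measure the spread between these arrays, part of which may be technical. The labels name no transgene or deletion, 1 strain and 1 age.

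Macrophages settle in nearly every organ before birth, and many of the first to arrive come from the yolk sac. They live on signals through Csf1r, the receptor for the growth factors Csf1 and Il34, and they clear dying cells and trim vessels and neurites while the organ forms. In the pituitary they lie between the hormone cells and along the capillaries. Complement component C1q, a plasma protein that tags cells and debris for uptake, is made largely by tissue macrophages from the genes C1qa, C1qb and C1qc.

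A level below is the log2 of a probe's background-corrected intensity minus the 75th percentile of its array, so that 0 is the brightness of that percentile. Levels of different probes are not compared with each other, since probes differ in how brightly they bind. Genes are given by their brightest probe. The bulk tissue cannot tell fewer cells of a type from less RNA per cell.

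The sequences of some of the probes are printed here. Those for C1qa and C1qc are given as examples of the C1q genes, whose pairs were among the most alike. That for Mrc1 is given because its letters come from separated stretches of the genome. Those for Aif1 and Ptprc are given because each gene had 2 probes that could be compared. For Ptprc the dimmer probe is printed, while Ptprc levels below come from the brighter one unless stated. All are 60 bases, 5′ to 3′, as the deposited files give them:
C1qa: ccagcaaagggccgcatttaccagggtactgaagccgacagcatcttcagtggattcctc
C1qc: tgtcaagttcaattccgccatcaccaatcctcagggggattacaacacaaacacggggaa
Mrc1: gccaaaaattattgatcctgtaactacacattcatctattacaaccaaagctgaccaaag
Aif1, brighter probe: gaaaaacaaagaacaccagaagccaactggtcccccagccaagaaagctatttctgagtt
Ptprc, dimmer probe: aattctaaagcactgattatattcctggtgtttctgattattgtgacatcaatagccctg

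Positions are on the rn4 build, and exon annotation of that build was not used here. The C1qa probe lies at chr5:155662578-155662637 and the C1qc probe at chr5:155656638-155656697, both on the minus strand. With the C1qb probe at chr5:155647530-155647589 the 3 span 15.1 kb, a small gene cluster. The Mrc1 probe covers chr17:88489156-88491763 on the plus strand, a stretch of 2608 bases for 60 bases of probe. The Aif1 probe shown lies at chr20:3716146-3716205 on the plus strand and the Ptprc probe shown at chr13:51274302-51274361 on the minus strand. Csf1r and Cd74 share chromosome 18, and their probes fall within 340.5 kb. The Cd68 probe is at chr10:56481726-56481785 and the Cx3cr1 probe at chr8:125033728-125033787, both on the minus strand. The Cx3cr1 probe contains a run of 22 bases made up of the pairs AC or CA, which no other probe of the 10 genes approaches (at most 6 bases).

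Promoters were available from RefSeq on the GRCr8 build for 8 of the 10 genes, Aif1 and C1qc being the others. The window searched ran from 250 bases before to 50 after the gene start, 300 bases in all, on both strands. The letters GAGGAA, the core bound by the myeloid factor PU.1, occurred in 6 of the 8 (C1qb, Cd68, Cd74, Csf1r, Mrc1 and Ptprc) and in 27.6% of all 33469 promoters of that length. The letters GCGTG, the core of the aryl hydrocarbon receptor's site, occurred in 2 of the 8, Csf1r and Ptprc, and in 29.7% of all. A match is a run of letters and not a shown site. The 250 bases before the start are printed for C1qa and C1qb, genes of 1 cluster whose levels followed each other closely, with GAGGAA on either strand in capitals. C1qb holds it 247 and 90 bases before its start, and C1qa has no match in the window.
C1qa, chr5:154419934-154420183, minus strand: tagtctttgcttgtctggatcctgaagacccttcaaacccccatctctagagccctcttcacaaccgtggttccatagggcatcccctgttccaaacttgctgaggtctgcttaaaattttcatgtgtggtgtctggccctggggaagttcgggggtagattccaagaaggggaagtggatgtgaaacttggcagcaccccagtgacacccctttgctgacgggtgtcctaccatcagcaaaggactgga
C1qb, chr5:154407828-154408077, minus strand: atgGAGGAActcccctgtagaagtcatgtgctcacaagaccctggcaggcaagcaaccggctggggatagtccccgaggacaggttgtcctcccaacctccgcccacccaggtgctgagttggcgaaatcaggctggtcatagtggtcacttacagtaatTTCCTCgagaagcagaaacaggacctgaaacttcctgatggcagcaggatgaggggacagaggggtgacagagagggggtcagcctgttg

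All 10 genes were detected in the fetal gland. The main probe of each was well above background on all 12 arrays. Of 42 further macrophage and microglia genes, 38 were on the array, 34 passed the filter and 31 of these were well above background on every array, while Irf8, Mpeg1, Marco and Cd37 did not pass. Of 23 genes of T, B and NK cells, all on the array, 10 passed and 5 were above background throughout. The 10 that passed were Cd3d, Cd3g, Cd4, Cd8b, Lck, Zap70, Cd79b, Pax5, Nkg7 and Prf1. Those below the filter included Cd3e and Cd8a of T cells, Cd79a and Ms4a1 of B cells, and the recombination genes Rag1 and Rag2. For the gland itself, 14 of 15 genes that define the pituitary were measured, and their summed intensity relative to the array's 75th percentile ran from 89.5 on the lowest exposed male array to 248 on the highest female control array.

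The array set was checked before the comparisons. Between 75% and 78.2% of the 42877 spots of an array that are not controls lay well above background, and no spot was saturated. Ahrr, the repressor that the aryl hydrocarbon receptor induces, lay between -6.26 and -4.98 on the control arrays and between -0.22 and 0.68 on the exposed arrays (limma, adjusted p = 5.12e-06 over both sexes). Cyp1a1, the cytochrome P450 of the same receptor, was higher after exposure by at least 26.1-fold in the male gland and at least 23.9-fold in the female gland (limma, adjusted p = 0.000266 and 0.00044), and was not well above background on any control array. Avil, a gene of sensory neurons, split the arrays into 6 with levels from 0.18 to 1.63 and 6 from -3.68 to -3.32. Among exposed animals the high arrays were male TCDD 1 and 2 with female TCDD 1 and 3. Among controls they were replicate 2 of each sex. The slide was also uneven: slide 1 held the male controls and male TCDD 1, slide 2 held male TCDD 2 and 3 with female controls 1 and 2, and slide 3 held female control 3 and the exposed females.

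The exposure question is whether maternal dioxin changed these genes in the male or the female gland. No gene of the 10 passed the test in any comparison. In males 9 of the 10 had a lower mean after exposure, with a median difference of -0.49, and in females 8 had a higher mean, Cd68 by a margin that rounds to 0, with a median of 0.15. The male differences came from 2 arrays of the 3: male TCDD 1 and 2 were low for most of these genes, and male TCDD 3 lay near the controls.

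**Figure D1:**
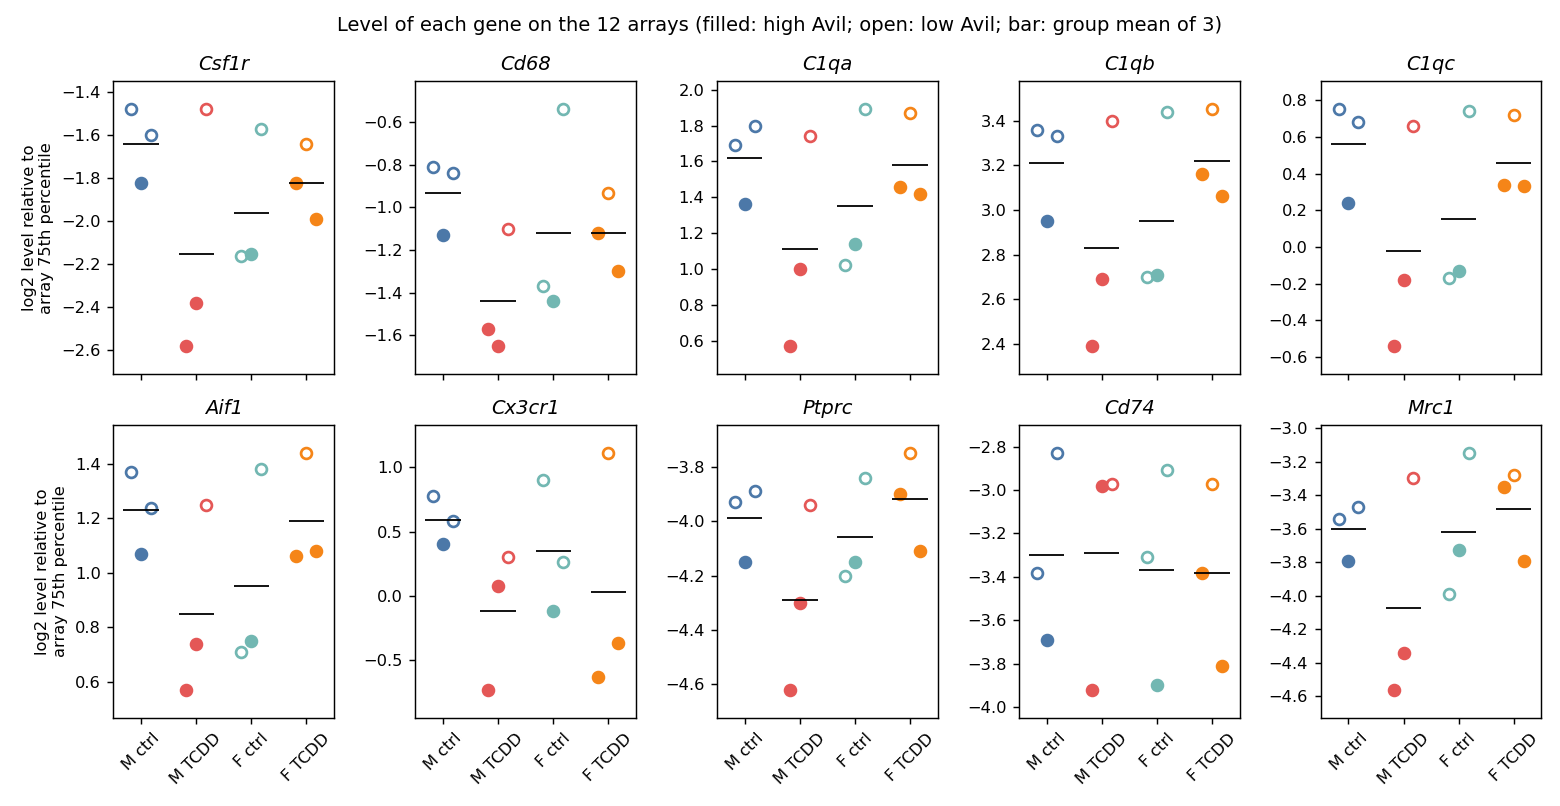
Each panel plots the level of a gene (log2, vertical axis, with 0 at the 75th percentile of the array) on the 12 arrays by group, with M for male and F for female. Filled points are arrays with high Avil, open points those with low Avil, and bars are group means of 3. For C1qa the male TCDD arrays ran from 0.57 to 1.74 while male controls ran from 1.36 to 1.80.

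Csf1r, the receptor that keeps macrophages alive, read -1.48, -1.82 and -1.60 in male controls and -2.58, -2.38 and -1.48 in exposed males. Male TCDD 3 equalled the highest control, so the groups overlapped. The difference was -0.51 ± 0.27 (SE), 1.42-fold lower with a 95% interval from 0.465 to 1.06 of the control level (limma, adjusted p = 0.506). Female controls read -2.16, -2.15 and -1.57 and exposed females -1.82, -1.64 and -1.99, a difference of 0.15 ± 0.27 (adjusted p = 1). The dimmer Csf1r probe gave -0.41 in males and 0.16 in females.

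Ptprc, the CD45 phosphatase found on nearly all white blood cells, read -3.93, -4.15 and -3.89 in male controls and -4.62, -4.30 and -3.94 in exposed males. Its main probe is printed on 10 spots per array, with 7 to 10 usable and an SD between spots of 0.03 to 0.14, and its levels ranged over 0.87 between arrays. Ptprc differed by -0.30 ± 0.19 in males and by 0.14 ± 0.19 in females (adjusted p = 0.521 and 1).

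Cd68, a lysosomal protein of phagocytes, gave the smallest unadjusted p of the 10 in males. Its levels were -0.81, -1.13 and -0.84 in male controls and -1.57, -1.65 and -1.10 in exposed males, where the lowest control lay just below the highest exposed array. The difference was -0.51 ± 0.24 with a 95% interval from -1.04 to 0.01 (limma, unadjusted p = 0.0547, adjusted p = 0.506). In females Cd68 read -1.37, -1.44 and -0.54 in controls and -1.12, -0.93 and -1.30 after exposure, and the means were equal to 2 decimals.

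Mrc1, the mannose receptor CD206 of tissue-resident macrophages, was lowest on male TCDD 1 at -4.56 and male TCDD 2 at -4.34. Male TCDD 3 read -3.30, above the male controls at -3.54, -3.79 and -3.47. The mean difference was -0.47 ± 0.32 in males. In females it was 0.15 ± 0.32, with controls at -3.99, -3.73 and -3.15 and exposed glands at -3.35, -3.28 and -3.79.

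The C1q genes encode the 3 chains of a single protein and were high and low on much the same arrays. C1qa read 1.69, 1.36 and 1.80 in male controls and 0.57, 1.00 and 1.74 in exposed males. In females C1qa read 1.02, 1.14 and 1.89 in controls and 1.46, 1.87 and 1.42 after exposure. Exposed and control arrays overlapped in both sexes. The male differences were -0.51 ± 0.30 for C1qa, -0.39 ± 0.27 for C1qb and -0.58 ± 0.32 for C1qc (limma, adjusted p between 0.511 and 0.536). The female differences were 0.24 ± 0.30, 0.28 ± 0.27 and 0.32 ± 0.32 in the same order, with an adjusted p of 1 each. C1qc had the largest difference of effect between the sexes among the 10, -0.90 with a 95% interval from -1.90 to 0.11 (adjusted p = 0.883).

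Aif1, the calcium-binding protein known as Iba1, read 1.37, 1.07 and 1.24 in male controls and 0.57, 0.74 and 1.25 in exposed males. The difference was -0.37 ± 0.21 in males and 0.25 ± 0.21 in females. The probes of Aif1 disagreed: the dimmer one gave 0.10 ± 0.19 in males, and over the 12 arrays the probes correlated at r = 0.40 (Spearman 0.44, permutation p = 0.199 and 0.155, r = -0.05 without the 2 arrays farthest from the median). The Csf1r probes correlated at r = 0.95 (Spearman 0.94) and the Ptprc probes at r = 0.69 (Spearman 0.61), with permutation p-values adjusted over the 3 pairs of 3e-05 and 0.0142 for Pearson's r. Without the 2 farthest arrays these were 0.89 and 0.62. The dimmer Ptprc probe was well above background on 8 arrays only.

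Cx3cr1, the fractalkine receptor that marks microglia and monocytes, was the only 1 of the 10 whose male groups did not overlap, which was true of 14.4% of all genes. Male controls read 0.78, 0.40 and 0.58 and exposed males -0.73, 0.08 and 0.30. The difference of -0.71 ± 0.44 was the largest among the 10 and also the least precise (1.63-fold lower, 95% interval 0.311 to 1.20 of the control level, adjusted p = 0.520). Exposed females ran from -0.63 to 1.11, wider than any other group for this gene, and differed from controls by -0.31 ± 0.44. No member's groups failed to overlap in females, against 6.96% of all genes.

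Cd74, the invariant chain that escorts MHC class II molecules, had equal group means. Male controls read -3.38, -3.69 and -2.83 and exposed males -3.92, -2.98 and -2.97. The difference was 0.01 ± 0.35 in males, with a 95% interval from -0.78 to 0.79, and -0.01 ± 0.35 in females, and the sign turned with the scaling (with median centring -0.06 in males and 0.01 in females). Unlike the C1q genes, Cd74 was high on male TCDD 2, as it was on male TCDD 3.

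**Figure D2:**
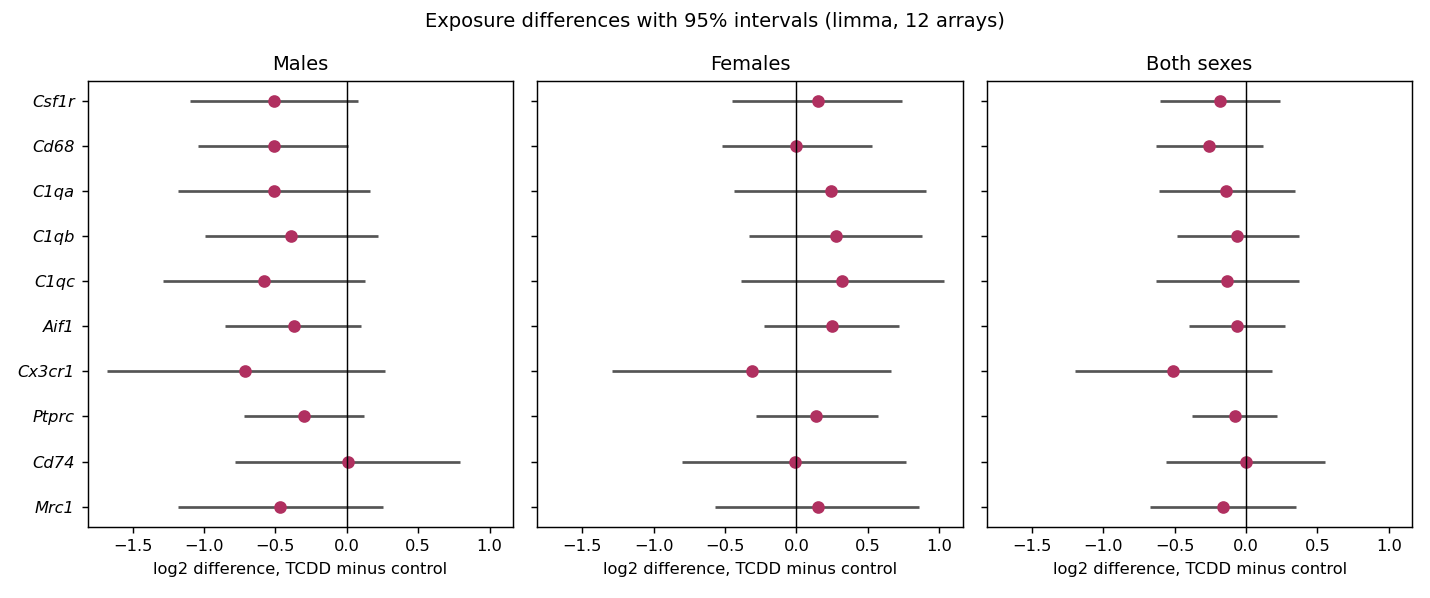
Points are log2 differences of exposed minus control arrays (horizontal axis) for each gene (vertical axis), 1 panel each for males, females and both sexes, with 95% intervals from limma as lines. Every interval includes 0, the nearest miss being Cd68 in males with an upper bound of 0.01.

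Called genes were rare on the whole array. At an adjusted p below 0.05, 2 of 19381 genes passed in males (0.0103%) and 2 in females (0.0103%), 4 over both sexes (0.0206%), 0 for the difference between the sexes and 2 between male and female controls (0.0103%). At an unadjusted p below 0.05 none of the 10 genes passed in any of the 5 comparisons, where 9.34% of genes did so for males, 2.68% for females and 6.46% with the sexes joined. Below 0 lay 9 of the 10 in males against 51.4% of all genes, and 2 of the 10 in females against 59.2%. Over both sexes the median difference of the 10 was -0.13, from -0.51 for Cx3cr1 to 0 for Cd74, while the median of all genes was -0.02. All 10 were below 0 there, Cd74 by a margin that rounds to 0, as were 55.8% of all genes. Since the genes move together across arrays, their counts in 1 direction are not separate observations.

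The effect of exposure was more negative in males than in females for 9 of the 10 genes, Cd74 being the other, and for 43.0% of all genes. With median centring it was so for all 10 and for 54.7% of all genes. The median difference of the effects was -0.62, from -0.90 for C1qc to 0.02 for Cd74. None passed the test of that difference (limma, adjusted p from 0.883 to 0.994), and no gene of the array did. At an unadjusted p below 0.05, 4.47% of all genes passed it. Male controls were above female controls for all 10, by 0.02 for Mrc1 to 0.41 for C1qc with a median of 0.25, where 58.1% of all genes were below 0 (44.1% with median centring, with all 10 still above 0). The median was 0.09 without female control 2 and 0.48 without female control 3, and 2 of the 10 lay below 0 without female control 2 or without male control 3. None passed (limma, adjusted p = 1 for each, with 5.51% of all genes at an unadjusted p below 0.05), and no gene of the 10 had groups that did not overlap, against 10.6% of all genes.

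Several settings moved these values. When limma weighted the arrays by quality, 12.8 being the weight of male TCDD 2, 8 of the 10 genes were called lower in males (Cd74 and Cx3cr1 were not), along with 6558 of 19381 genes in all. Without male TCDD 1 the male median was -0.24, without male TCDD 1 and 2 it was 0.11, and without male TCDD 3 it was -0.76. Within slides, where the male comparison rests on male TCDD 1 and the female comparison on female control 3, the medians were -0.89 in males and -0.26 in females, with none of the 10 called. The fixed slide block gave the same medians and put male controls 1.14 above female controls, with none of the 10 called.

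The 10 genes differed in how far they ranged. From the lowest to the highest array the levels spanned 1.83-fold for Aif1 and Ptprc, 2.09-fold to 2.49-fold for the C1q genes, 2.66-fold for Mrc1 and 3.57-fold for Cx3cr1. Male TCDD 1 was among the 2 lowest arrays for all 10 genes and male TCDD 2 for 7. Female TCDD 2 and female control 3 were each among the 4 highest for 9 of the 10.

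High Avil and low levels of these genes occurred on the same arrays. For each of the 10, 5 of the 6 high-Avil arrays and 1 of the 6 low-Avil arrays lay below the median of the 12 arrays, and 33.3% of all genes had 5 or 6 high-Avil arrays below their median. C1qa ran from 0.57 to 1.46 with a median of 1.25 on the high-Avil arrays and from 1.02 to 1.89 with a median of 1.77 on the others. The median gap was smallest for Ptprc at -0.24 and widest for Cx3cr1 at -0.92, followed by Cd74 at -0.78. For Cx3cr1 and Cd74, 5 of the 6 high-Avil arrays lay below every low-Avil array. These sets were defined from the data, so no test is given.

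**Figure D3:**
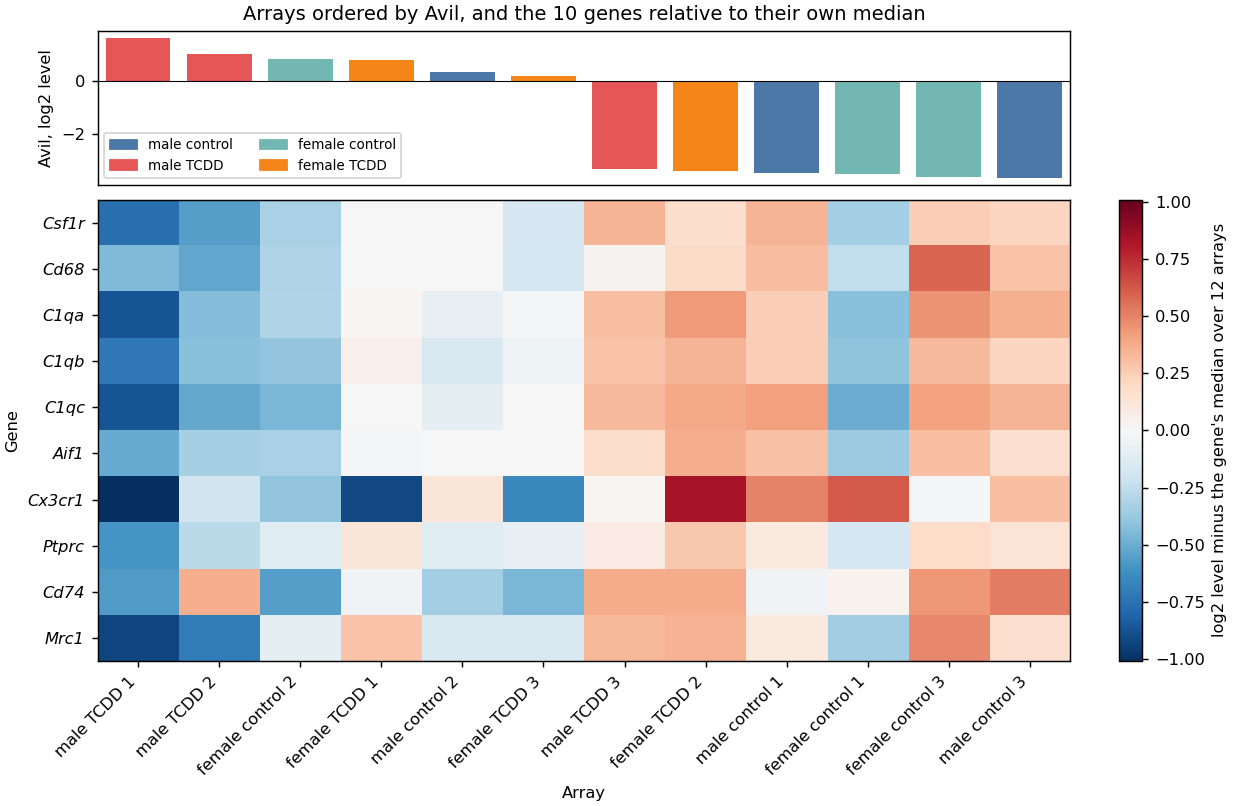
The upper panel shows the Avil level (log2) of the 12 arrays in falling order, coloured by group, and the lower panel the level of each gene on the same arrays as a difference from its own median of 12 arrays (red higher, blue lower, log2). Female control 1, with Avil at -3.54, is low for most genes, as the high-Avil arrays are.

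Female control 1 stood apart from the other low-Avil arrays. It was among the 4 lowest arrays for 8 of the 10 genes with Avil at -3.54, the exceptions being Cx3cr1 at 0.90 and Cd74 at -3.31. When it is set aside, all 6 high-Avil arrays lay below every remaining low-Avil array for Csf1r, Cd68, C1qa, C1qb, C1qc and Aif1. Without the 6 high-Avil arrays the median difference of the 10 was -0.02 in males and 0.33 in females, with none called, and both exposed groups then rest on 1 array each, whose spread is assumed to be that of the other groups. With Avil as a covariate the medians were -0.24 and 0.29.

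Summed levels of markers of other cells are given by group and by Avil set. The 14 measured genes of sensory ganglion neurons, of 15 listed, summed to 1.65 to 39.7 on male controls, 2.07 to 104 on exposed males, 1.52 to 56.3 on female controls and 1.90 to 51.4 on exposed females, as linear intensities relative to the array's 75th percentile. On the same scale the 12 endothelial genes summed to 26.3 to 34.7 in male controls, 19.0 to 32.6 in exposed males, 23.8 to 33.2 in female controls and 27.6 to 38.3 in exposed females. The 9 fibroblast genes summed to 138 to 154, 94.9 to 168, 140 to 172 and 133 to 211 in that order of groups. The 11 Schwann cell and glia genes summed to 9.41 to 17.2, 8.71 to 46.8, 6.80 to 21.0 and 8.59 to 26.9, and the 9 erythroid genes to 224 to 253, 183 to 252, 96.5 to 232 and 205 to 306. Between the Avil sets the ganglion and Schwann cell sums did not overlap (39.7 to 104 on high-Avil against 1.52 to 2.64 on low-Avil arrays, and 17.2 to 46.8 against 6.80 to 9.48). The endothelial sums (19 to 32 against 29.9 to 38.3), the fibroblast sums (94.9 to 175 against 138 to 211) and the erythroid sums (183 to 249 against 96.5 to 306) overlapped. Of the 14 pituitary genes 13 were below 0 in exposed males (51.4% of all genes) and 13 in exposed females (59.2% of all genes). Their median difference was -0.47 in each sex, and none passed. Their part in the levels of the macrophage genes was not tested.

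Among themselves the 10 genes were tightly coupled, with Cx3cr1 and Cd74 as looser members. Over the 45 pairs, Pearson's r across the 12 arrays ran from 0.37 to 0.99 with a median of 0.89, and Spearman's rho from 0.33 to 0.97. In a permutation test with Benjamini-Hochberg adjustment over the 45 pairs, 31 passed at 0.05 by Pearson's r and 35 by rho. Pairs drawn from all genes of the array were not tested. The share of them that would pass is therefore not known, here or for the counts of correlations below. C1qa with C1qb, C1qa with C1qc and C1qb with C1qc each reached r = 0.99 (rho 0.97, 0.93 and 0.94, adjusted p = 3.75e-05 each). Without the 2 arrays farthest from the median these stood at 0.98, 0.98 and 0.99.

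**Figure D4:**
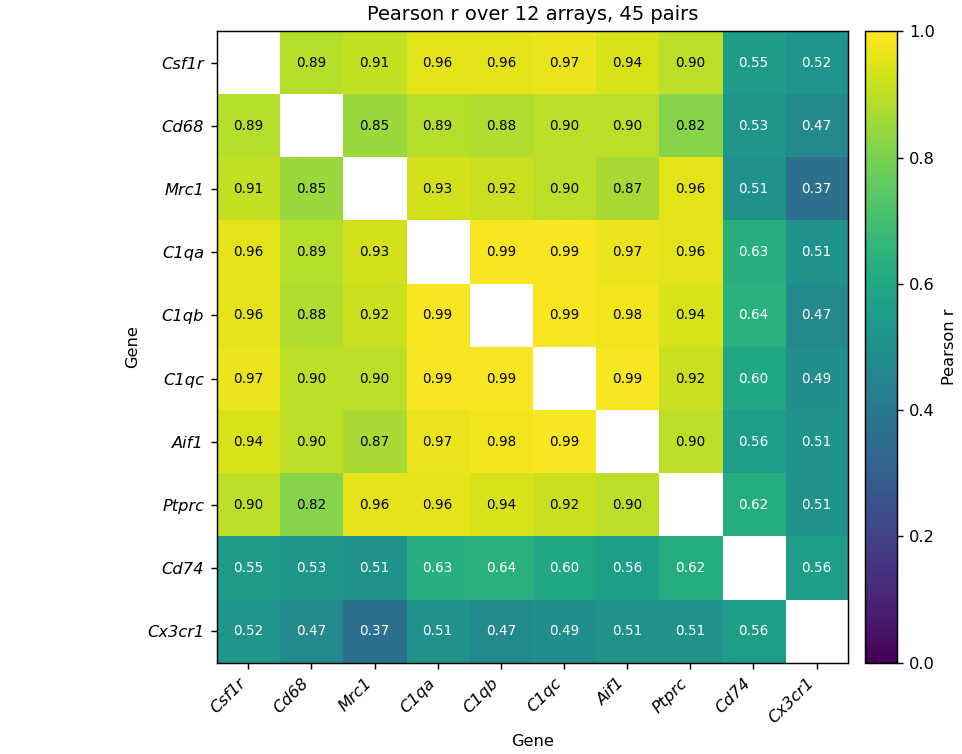
Each cell gives Pearson's r between the levels of 2 genes over the 12 arrays, on a colour scale from 0 to 1. The 28 pairs without Cd74 and Cx3cr1 lie between 0.82 and 0.99, and the last rows and columns, for Cd74 and Cx3cr1, hold lower values, with medians of 0.56 and 0.51.

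Subsets of arrays gave similar medians. The median r of the 45 pairs was 0.85 over the 6 high-Avil arrays and 0.80 over the 6 low-Avil arrays. After each group's mean was removed the median was 0.90 and 37 pairs passed the permutation test. Csf1r correlated with C1qc at 0.97 (rho 0.92) and Ptprc with Mrc1 at 0.96 (rho 0.92), each at an adjusted permutation p of 3.75e-05, and without the 2 farthest arrays at 0.95 and 0.92. Cd68 correlated at 0.82 with Ptprc and 0.90 with C1qc.

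Cx3cr1, read by the probe with the run of 22 bases of AC or CA pairs, followed the others least. Any part of that run in its levels was not tested. The 9 pairs of Cx3cr1 ran from 0.37 with Mrc1 to 0.56 with Cd74. None passed the permutation test, adjusted or unadjusted, by Pearson's r, while 1 passed by Spearman's rho. Within the low-Avil arrays the median of its 9 correlations was -0.34. With the 34 other macrophage and microglia genes Cx3cr1 had a median r of 0.51, and none passed after adjustment over the 34 while 10 had an unadjusted permutation p below 0.05. C1qa against the same 34 genes had a median of 0.89 and 30 passed, Coro1a among them at -0.77. The difference between Cx3cr1 and C1qa was not tested, and the pair was picked after the values were seen.

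Cd74 passed in 3 of its 9 pairs, with C1qa (r = 0.63, rho 0.72), C1qb (r = 0.64, rho 0.65) and Ptprc (r = 0.62, rho 0.66), each at an adjusted permutation p of 0.0419. Without the 2 farthest arrays these were 0.44, 0.74 and 0.76. Over the high-Avil arrays they were 0.15, 0.21 and 0.23, and over the low-Avil arrays 0.67, 0.55 and 0.61. By Spearman's rho 7 of the 9 passed. After removal of the group means r ran from 0.64 with Cx3cr1 to 0.82 with Ptprc. All 9 then passed in a permutation test that ignored the removed means, so its p-values can be too small. Cd74 was also set beside 7 measured genes of antigen presentation, of 12 listed. It passed with 4 of the 7: the costimulator Cd86 at 0.75 (rho 0.85), the class II chain RT1-Bb at 0.71 (rho 0.69), the class II loader RT1-DMb at 0.67 (rho 0.71) and Cd40 at 0.65 (rho 0.74), with permutation p-values adjusted over the 7 of 0.0035, 0.0299, 0.0418 and 0.0418. Without the 2 farthest arrays they were 0.59, 0.58, 0.47 and 0.35. Cd86 ran from -8.53 on female control 2 to -4.70 on male control 3. The lowest signal well above background lay between -6.87 and -6.31, depending on the array. Apart from male control 3, the Cd86 levels were thus near or below that floor. The class II chain RT1-Da missed the threshold at r = 0.58 (rho 0.55, adjusted permutation p = 0.0701), with 0.96 over the high-Avil and 0.83 over the low-Avil arrays. The 4 that passed were lower within the low-Avil arrays, at 0.44 for Cd86, 0.19 for RT1-Bb, 0.11 for RT1-DMb and 0.40 for Cd40. Over the high-Avil arrays they stood at 0.71, 0.89, 0.77 and 0.18 in that order. RT1-DMa had an r of 0.54, and RT1-Db1 an r of 0.00 over the 12 arrays. These relations were chosen after the data were seen.

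Genes most like the set were found by correlating every other gene with the mean of the 10 standardised levels over the 12 arrays. The 8 nearest of 19339 were Cpq (r = 1.00, rho 0.98), the transcript ENSRNOT00000027971 (0.99, rho 0.93), Rhod (0.99), Ppp1r3c (0.99), Tlr6 (0.99), Tcea3 (0.99), Nfkb2 (0.98) and Tmbim1 (0.98), the last 6 with a rho of 0.96 or 0.97. Cpq is a secreted peptidase, Tlr6 a receptor for bacterial lipopeptides and Nfkb2 a subunit of NF-kappaB. Such likeness was common: 3.35% of genes had an r of 0.9 or more and 2.53% had -0.9 or less. All points share the same 12 arrays, and the values are a description.

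Most other macrophage genes followed the 10 across arrays. Of 34, 33 correlated positively with the mean of the 10, with a median r of 0.89 against 0.26 over all genes, and 15 reached 0.9. Lists of other cells followed the 10 as well: the median r was 0.85 for 9 fibroblast genes, all positive, 0.84 for 8 erythroid genes, 7 of them positive, and 0.75 for 12 endothelial genes, all positive. The mean of each list was also set against that of the 10 within the Avil sets. Over the low-Avil arrays r was 0.98 for the other macrophage genes, 0.47 for fibroblast, 0.86 for erythroid and 0.28 for endothelial genes. Over the high-Avil arrays r was 1, 0.97, 0.77 and 0.99 in that order. Among the 34 macrophage genes, the Fc receptors Fcgr1a at 0.98 and Fcgr2b at 0.97 and the folate receptor Folr2 at 0.96 were nearest over the 12 arrays. The microglia genes Tmem119 at 0.92 and P2ry12 at 0.75 were also positive. Fcgr3a was near 0 at 0.01. Coro1a, an actin-binding protein of white blood cells, went the other way at -0.83. It ran from 0.92 to 2.33 on the high-Avil arrays, controls included, and from -0.48 to 0 on the low-Avil arrays. Its r with C1qa was -0.91 over the high-Avil arrays and 0.06 over the low-Avil arrays.

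**Figure D5:**
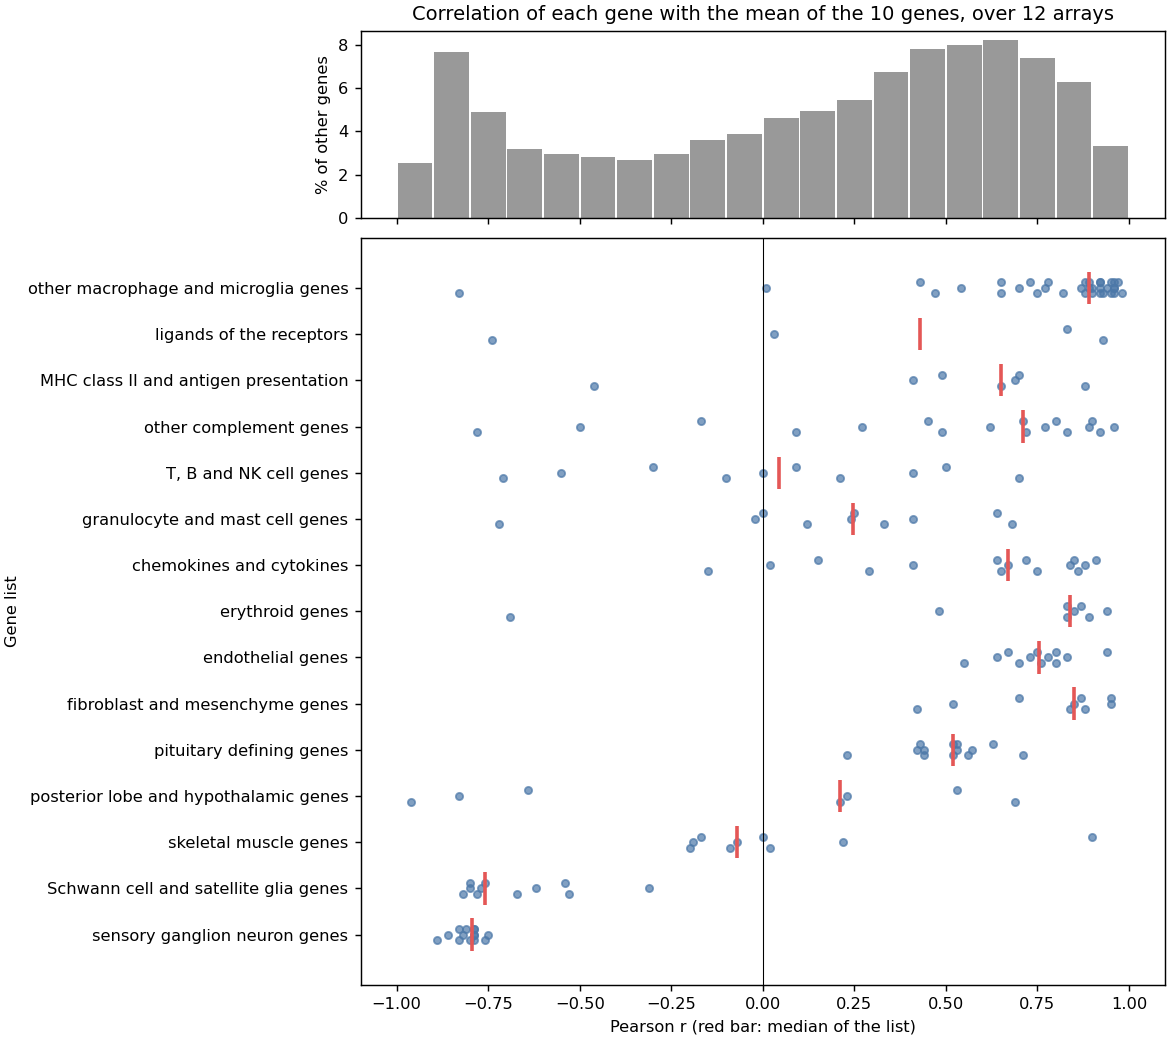
The upper panel gives the share of the other genes on the array by their Pearson r with the mean of the 10 genes over 12 arrays, in steps of 0.1, and the lower panel each measured gene of 15 lists, with the median of a list as a red bar. Other macrophage genes lie mostly to the right with a median of 0.89, and sensory ganglion genes to the left, all below 0.

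In the exposure comparisons no gene of the 34 passed. An unadjusted p below 0.05 in limma was found for 6 of them in males, 0 in females and 2 with the sexes joined. The shares over all genes were 9.34%, 2.68% and 6.46% in that order. In males 30 of 34 were below 0 with a median of -0.38, against 51.4% of all genes below 0. In females 23 were above 0 with a median of 0.11, where 59.2% of all genes were below 0. Over both sexes 26 were below 0 with a median of -0.12, against 55.8% of all genes. The 3 with the smallest unadjusted p over both sexes were Trem2, a lipid receptor of microglia (-0.68 ± 0.29), Lyz2, lysozyme (-0.40 ± 0.13), and Cd163, the haemoglobin scavenger receptor (-0.62 ± 0.28), each with an adjusted p of 0.67 in limma. Cd163 read -1.79, -2.37 and -1.63 in male controls and -3.63, -3.26 and -2.01 in exposed males. Like Csf1r, it was low on male TCDD 1 and 2 and nearer to the controls on male TCDD 3.

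Ligands of the receptors among the 10 were measured for 4 of 5 listed, and none passed. Csf1 correlated with the mean of the 10 at 0.93 and Il34 at 0.83, both being ligands of Csf1r. Il34 read 2.44, 1.48 and 1.48 in male controls and 0.34, 0.83 and 1.68 in exposed males, with a difference of -0.85 ± 0.37 in males and -0.49 ± 0.26 over both sexes (limma, adjusted p = 0.506 and 0.67). Cx3cl1, the ligand of Cx3cr1, had an r of 0.03 with the mean of the 10 and differed by -0.25 ± 0.12 over both sexes. Mif, a cytokine that binds Cd74, went the opposite way at r = -0.74 and differed by 0.15 ± 0.10.

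Complement genes other than C1q were measured for 17 of 19, and none passed. Over both sexes 14 were below 0, as were 55.8% of all genes, with a median of -0.26 against -0.02 for all genes. Over both sexes C7 of the membrane attack complex differed by -0.46 ± 0.19 and C1r, the protease partner of C1q, by -0.40 ± 0.20 (limma, adjusted p = 0.67 each). Cfd correlated with the mean of the 10 at 0.96, while Cfi did so at -0.78. Of 7 genes of antigen presentation, 6 were below 0 in males (51.4% of all genes), with a median of -0.03 against -0.01 for all genes. In females all 7 were above 0, where 59.2% of all genes were below, with a median of 0.26 against -0.04. None passed. RT1-Db1, the gene above 0 in males, differed by 0.41 ± 0.15 there and by 0.23 ± 0.11 over both sexes. Over both sexes RT1-DMa differed by 0.15 ± 0.09 and Cd40 by -0.21 ± 0.15.

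Genes of other immune cells also gave no call. Among 10 measured genes of granulocytes and mast cells, S100a8 of neutrophils differed by 0.69 ± 0.21 over both sexes and the histamine enzyme Hdc by -1.22 ± 0.38 (limma, adjusted p = 0.67 each). Hdc read -3.38, -2.11 and -3.80 in male controls and -4.83, -4.84 and -4.05 in exposed males. These groups did not overlap, which was true of 14.4% of all genes in males. In females Hdc overlapped, from -3.52 to -1.68 in controls and from -4.36 to -3.42 after exposure. The mast cell tryptase Tpsab1 was well above background on 9 arrays, so no size of difference is given. It read -5.61, -5.48 and -3.87 in male controls, -9.06, -7.70 and -5.56 in exposed males, -6.31, -4.78 and -3.98 in female controls and -6.79, -6.42 and -5.68 in exposed females. It did not pass (limma, adjusted p = 0.67 over both sexes). Of the 10 genes of T, B and NK cells, Nkg7, well above background on 11 arrays, differed by -0.77 ± 0.40 and Zap70 by 0.65 ± 0.38. Prf1 was well above background on 4 arrays only, so no size of difference is given for it, and it did not pass.

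Chemokines and cytokines were measured for 15 of 19. Ccl2, which draws monocytes, was higher on every exposed array than on every control array of the same sex, with -2.71, -2.73 and -2.66 in male controls, -2.03, -2.31 and -2.60 in exposed males, -3.42, -2.82 and -2.76 in female controls and -2.11, -2.25 and -2.51 in exposed females. The difference over both sexes was 0.55 ± 0.14 and did not pass (limma, unadjusted p = 0.00271, adjusted p = 0.631). Groups that do not overlap were found for 14.4% of all genes in males and 6.96% in females. The r of Ccl2 with the mean of the 10 was -0.15. Ccl5 differed by -0.58 ± 0.23 and Ccl9 by -0.38 ± 0.16, both with an adjusted p of 0.67.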

How the data were processed

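Total RNA was amplified, labelled with Cy3 and hybridised to 1-colour 60-base arrays, per the labels' protocols. Per the file headers, the authors' scans were read by Agilent Feature Extraction 10.7.1.1, which gave each spot a linear, background-corrected intensity, and probes carry rn4 positions. Version 9.5.1.1 is the one in the submitters' processing notes. The deposited value table also holds intensity, with a median of 83.5 in every column and ranks identical to those of the scans (Spearman 1). How it was scaled between arrays is not given in the sources used here, and it served as an alternative. Flags for outliers and for signal above background are the authors' deposited ones.

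Here, control and outlier spots were dropped, log2 intensity was centred on each array's 75th percentile and spots of a probe were averaged. Probes had to be well above background on at least 3 of 12 arrays with at least 10 values (22430 of 30367). Names came from RefSeq by accession for 18006 probes, by symbol for 2654 and from the file for 9707. The brightest probe stood for a gene. An intensity trend and 1 mean per group were fitted to all 12 arrays in limma 3.58.1 (R 4.3.3), with Benjamini-Hochberg adjustment over 19381 genes and a threshold of 0.05. The script was tested on simulated data. A fold against a group below background is a bound, from the higher of the probe's signal and the lowest signal well above background on each array. Correlations used 100000 permutations, whose smallest p is 1e-05. The number of arrays limits the precision.

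Over the 18 pairs of arrays with the same replicate number, the r of their deviations ran from -0.70 to 0.75. It was 0.13, 0.75 and 0.35 between male and female controls, and -0.22, 0.34 and 0.44 between male controls and exposed males. Between female controls and exposed females it was -0.48, -0.70 and -0.37, and between exposed males and exposed females 0.65, -0.09 and -0.39. The members and the gene lists were chosen with earlier results of these data known. Named genes are the 10, list genes that passed, the 3 of each immune list with the smallest p over both sexes, the 8 most alike, and Cyp1a1, Ahrr and Avil; other names were picked after their values were seen. Some genes that this rule names are not reported here.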

Additional observations from a re-analysis of the deposited data

How the results depend on the processing

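The count of the 10 genes called was 0 in all 5 comparisons under normexp background correction, median centring, quantile normalization, the authors' deposited values, other filters and probe rules, slide and Avil settings, no intensity trend, only the groups compared, and leaving out each array in turn (0 to 0). The exception was array quality weights, with 8 called in males. Male against female controls could not be fitted within slides. Genes called on the whole array, 2 in males and 4 over both sexes, were 26 and 15 with slide as a fixed block, 20 and 11 within slides, 6558 and 206 with array quality weights, 4 and 11 with Avil as a covariate and 0 and 0 without the high-Avil arrays. In females, where 2 were called, there were 0 within slides and 0 without the high-Avil arrays. Controls had 2 called and 10 with the fixed slide block. The difference between sexes had 0 and 6. With the other settings the counts ran from 0 to 9. With the replicate block, which pairs arrays of 1 number, 0 of the 10 genes were called in each comparison, and their median differences were -0.49 in males and 0.15 in females, as without it. On the whole array it called 2 genes over both sexes in place of 4, and 2 in males, females and controls, as without it. The correlated pairs numbered 31, 30 after quantile normalization and 37 after group means were removed. The last count can be too high, since the permutation ignored the removed means. Leaving out 1 array moved the male median between -0.76 (without male TCDD 3) and -0.24 (without male TCDD 1), the female median between 0.06 and 0.36, the median over both sexes between -0.30 and 0, the median of the difference between sexes between -0.88 and -0.44, and that of male against female controls between 0.09 and 0.48. The female median was -0.26 within slides. Leaving out male TCDD 1 and 2 was chosen after seeing the data. The number of arrays, 3 a group, limits the precision, and a p that misses the threshold does not show that the levels were alike.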
